A study of Arabidopsis thaliana with 12 samples.

Results

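Clade A of the AHL family holds genes for AT-hook motif nuclear-localised proteins, and 10 of them, SOB3 among them, were followed here across 4 genotypes of Arabidopsis thaliana. The members were chosen by name: SOB3, ESC, AHL28, AHL16, AHL15, AHL20, AHL17, AHL22, AHL18 and AHL19. They are 10 of the 25089 loci in the files, and each has 1 transcript there. Transcript levels came from RNA-seq of total RNA in 12 libraries, 3 per genotype. The genotypes were sob3-6, labelled a dominant-negative ahl mutant, SOB3-D, labelled an AHL overexpressor, a triple pif mutant with loss of function in all (pif4-101 pif5(pil6-1) pif7-1), and wild-type Col-0. All were in the Columbia (Col-0) background, were 14 days old, and had been kept at 22 °C under a photoperiod of 16 h, with 8 h of darkness. The part of the plant above a cut in the hypocotyl was harvested at ZT4. From the literature, SOB3-D is an activation-tagged line in which enhancers inserted near SOB3 raise its transcript. The same literature describes sob3-6 as isolated from mutagenised SOB3-D plants, with a missense change in the AT-hook coding sequence. The deposited values do not tell wild-type and mutant SOB3 transcripts apart, and the labels do not say how many plants were pooled per library.

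AHL proteins bind the minor groove of AT-rich DNA through the AT-hook and contact each other and other transcription factors through a PPC domain. In seedlings SOB3 and its close relative ESC (AHL27) act redundantly to restrain hypocotyl elongation in the light. A protein with a defective AT-hook can still join AHL complexes, and this is how a dominant-negative effect of such alleles has been described. PIF4, PIF5 and PIF7 are bHLH transcription factors that promote elongation and bind G-box and PBE-box sequences. The series asks how AHL and PIF factors regulate genes in juvenile rosettes, and here the question was whether related AHL genes respond to SOB3 or PIF status.

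The AT-hook coding stretches are shown because this is the part of the protein that contacts DNA, and because they show how alike the members are there. Each line gives 48 bases of coding sequence, 5′ to 3′ on the coding strand of TAIR10.1, with the 12 bases that code for the core Arg-Gly-Arg-Pro in capitals. The positions are chr1:28705742-28705789 (plus strand) for SOB3, chr1:7273276-7273323 (plus) for ESC, chr1:4959269-4959316 (minus) for AHL28, chr5:20192761-20192808 (plus) for AHL17 and chr4:8321167-8321214 (plus) for AHL20. All lie in exons.
SOB3: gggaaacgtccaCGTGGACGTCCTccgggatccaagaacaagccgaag
ESC: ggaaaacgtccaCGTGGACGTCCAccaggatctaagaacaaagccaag
AHL28: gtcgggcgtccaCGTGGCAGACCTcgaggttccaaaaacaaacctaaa
AHL17: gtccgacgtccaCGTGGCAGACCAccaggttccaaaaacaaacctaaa
AHL20: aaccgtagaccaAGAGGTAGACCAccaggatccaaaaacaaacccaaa
In this window SOB3 and ESC were identical at 85.4% of bases, AHL28 and AHL17 at 91.7%, and SOB3 and AHL20 at 60.4%. Each member held 1 such core, and each coding sequence lay in 1 unbroken segment. Over whole coding sequences, identity between the members ran from 42.8% to 71.5% over 45 pairs, with a median of 53.2%. SOB3 and ESC were the most alike pair at 71.5%, followed by AHL28 and AHL17 at 68.2% and AHL22 and AHL18 at 64.6%. Runs of 30 bases that occur elsewhere in the genome were rare: 5 of 1613 in AHL17, 3 of 1056 in AHL28, 1 of 1786 in AHL20 and 0 in the other members.

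**Figure D1:**
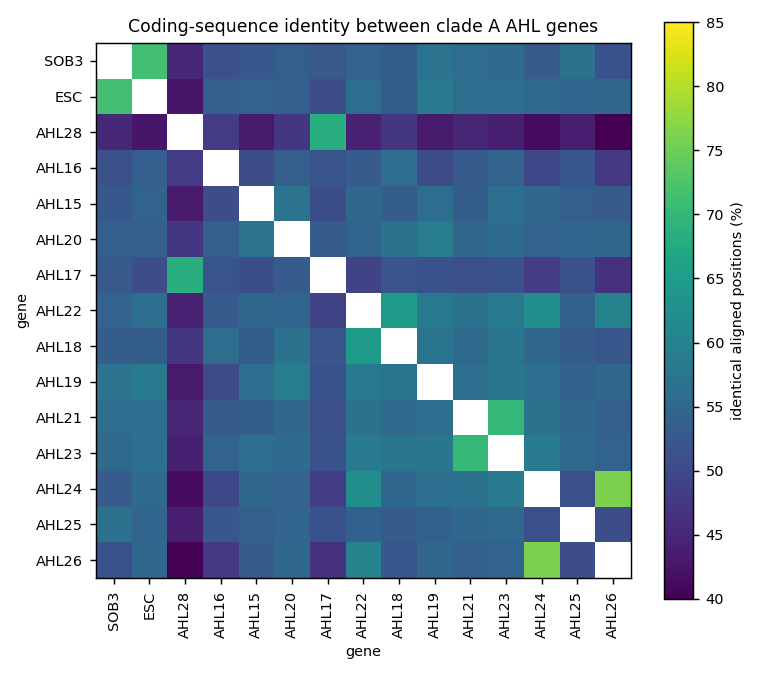
Percent of identical aligned positions between the coding sequences of the 10 members and the other 5 clade A genes, both axes listing genes and colour giving identity from low (dark) to high (yellow). SOB3 stood closest to ESC (71.5%), AHL28 closest to AHL17 (68.2%) and AHL24 closest to AHL26 (76.2%).

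Levels are given in ppm of mapped tags, as deposited. Recovered depth was 10179924 to 12567173 reads in sob3-6, 7637822 to 8877404 in SOB3-D, 13809707 to 14734732 in pif4 pif5 pif7 and 14488308 to 16075498 in Col-0, so 1 ppm stood for 7.64 to 16.1 reads. SOB3-D was the shallowest genotype, and a count of 0 there allowed a level of up to 0.393 ppm in the shallowest library, for counting error only. Shoot markers RBCS1A, LHCB1.1, RCA and STM were all detected in every library, summing to between 38870 and 48910 ppm, but single markers moved. STM, a gene of the shoot meristem, was at 3.27, 3.94 and 2.45 ppm in SOB3-D, 4.22, 3.597 and 3.11 ppm in pif4 pif5 pif7, and 5.04, 4.55 and 4.62 ppm in Col-0. It was called lower in SOB3-D (-0.46, limma adjusted p = 0.0221) and not in pif4 pif5 pif7 (-0.31, limma adjusted p = 0.241), though the libraries of both lay below those of Col-0. RCA was lower in sob3-6 (-0.32, limma adjusted p = 1.81e-06) and in SOB3-D (-0.16, limma adjusted p = 0.00309), and RBCS1A was higher in pif4 pif5 pif7 (0.15, limma adjusted p = 0.00833), each against Col-0. The 6 root markers summed to 0.160 to 0.828 ppm, with EXPA7 at 0 in all 12 libraries, and the 4 flower and anther markers to 0.467 to 1.46 ppm. In a whole shoot, fewer cells of a type and less RNA per cell cannot be told apart.

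Of the 10 members, 6 reached 1 ppm in at least 3 libraries and were tested: SOB3, AHL15, AHL17, AHL16, AHL20 and AHL28. SOB3 passed only through sob3-6 and SOB3-D. The other 4, ESC, AHL22, AHL18 and AHL19, lay below, as did the remaining clade A genes AHL21, AHL23, AHL24, AHL25 and AHL26. Changes are log2 differences of (ppm + 1) from limma, with p adjusted by Benjamini-Hochberg over all kept transcripts and called under 0.05, and a 95% interval where given. The labels do not say whether replicates were grown apart, so the p-values reflect only differences between libraries within genotypes, and these may be technical variation. That spread was pooled over the 4 genotypes and drawn toward the trend of other genes. A gene therefore had the same SE in every comparison, whatever its spread in 1 genotype. The 3 comparisons with Col-0 share its 3 libraries.

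SOB3 (AT1G76500, chr1:28704963-28706691, plus strand, 1 exon) was the member that the AHL lines were built on. It was at 232, 217 and 232 ppm in sob3-6, 206, 180 and 203 ppm in SOB3-D, 0.0715, 0.136 and 0.362 ppm in pif4 pif5 pif7, and 0.124, 0.312 and 0 ppm in Col-0. Both AHL lines were far above the others, with 8026 reads in sob3-6 and 4912 in SOB3-D, against 7 in Col-0. The log2 change was 7.65 (SE 0.10) in sob3-6 and 7.44 (SE 0.10) in SOB3-D, given as a check of the labels with no p. SOB3-D was made to raise SOB3, sob3-6 is described as isolated from SOB3-D, and SOB3 passed the filter only through these 2 lines. These values depend on the pseudocount, since Col-0 had so few reads, and over the other pseudocounts, filters, scalings and tools tried they ran from 7.58 to 10.5 in sob3-6 and from 7.44 to 10.4 in SOB3-D. Set against the upper 95% Poisson bound of the Col-0 reads, SOB3 pooled over the 3 libraries was 736-fold higher in sob3-6 and 633-fold higher in SOB3-D. Between the AHL lines, all sob3-6 libraries were above all SOB3-D libraries, yet the difference was not called (0.21, SE 0.10, limma adjusted p = 0.106). With only these 2 genotypes in the fit it was called (limma adjusted p = 0.00484).

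The sum of the 9 other members was 37.2 ± 2.7 ppm in sob3-6, 31.5 ± 1.1 ppm in SOB3-D, 36.3 ± 2.5 ppm in pif4 pif5 pif7 and 34.6 ± 3.2 ppm in Col-0 (SD, n = 3 each). SOB3 itself had 8 reads in pif4 pif5 pif7 and 7 in Col-0. The log2 change was 0.06, given with no p, since SOB3 passed the filter only through the AHL lines and lay below the pseudocount. Exact 95% Poisson intervals of these reads overlapped, at 0.0812 to 0.371 ppm and 0.0604 to 0.309 ppm. So few reads cannot show whether SOB3 responds to PIF status.

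**Figure D2:**
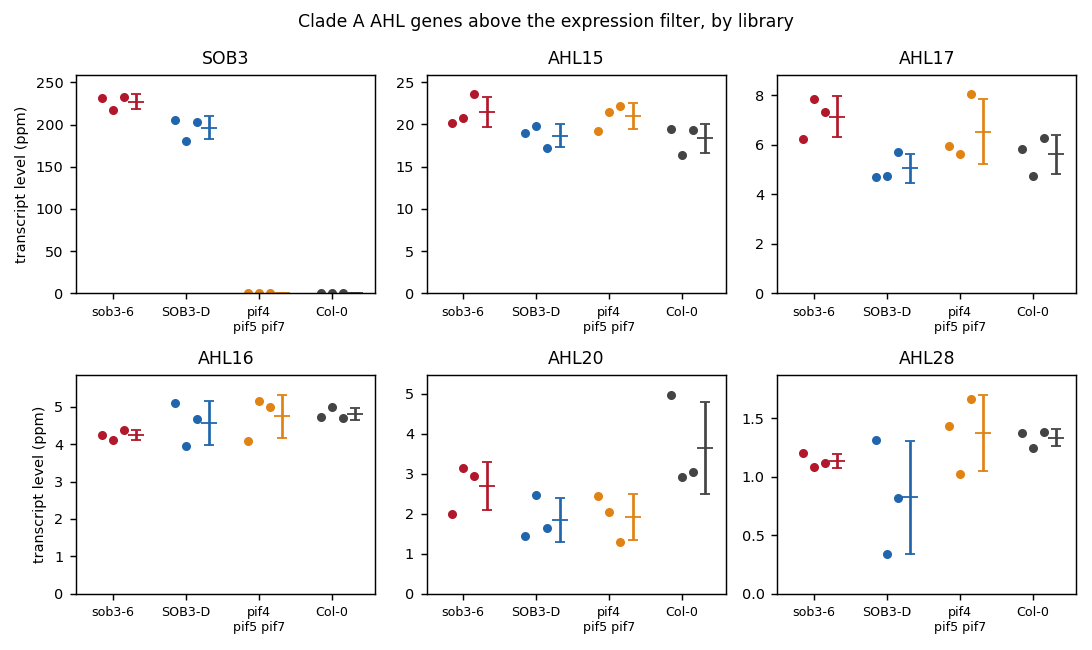
Transcript level in ppm (vertical axes, each panel on its own scale from 0) of the 6 tested members in sob3-6, SOB3-D, pif4 pif5 pif7 and Col-0, with a dot per library and a bar for mean ± SD (n = 3). SOB3 stood at 180 to 232 ppm in the AHL lines and under 1 ppm elsewhere, while Col-0 replicate 1 stood above the other AHL20 libraries at 4.98 ppm.

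Leaving aside SOB3, 0 of the 5 other tested members were called in sob3-6 against Col-0, in a comparison where 13.4% of all tested genes were called (9.43% higher, 3.95% lower) and 33.2% had libraries that did not overlap. The lowest adjusted p of the 5 were those of AHL15 (limma adjusted p = 0.0921) and AHL17 (limma adjusted p = 0.14). EdgeR and DESeq2 also called 0 of the 5. Over the 18502 genes, edgeR called 1018 higher and 1366 lower there, and DESeq2 499 and 967. In SOB3-D against Col-0, 1 of these 5 was called, AHL20 lower, with 26.4% called over all genes (11.6% higher, 14.9% lower) and 37.9% without overlap. In pif4 pif5 pif7 against Col-0, 1 of the 5 was called, AHL20 lower, with 6.33% over all genes (1.5% higher, 4.83% lower) and 27.1% without overlap. In sob3-6 against SOB3-D, 1 of the 5 was called, AHL17 higher, with 35.7% over all genes (24.8% higher, 10.9% lower) and 44.1% without overlap. The median log2 change of the 5 was -0.13 in sob3-6 against Col-0, -0.13 in SOB3-D against Col-0, 0.02 in pif4 pif5 pif7 against Col-0 and 0.26 in sob3-6 against SOB3-D. Over all genes the medians were 0.06, -0.02, -0.04 and 0.09 in the same order of comparisons.

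AHL20 (AT4G14465, chr4:8320538-8322352, plus strand, 1 exon) was lower in both SOB3-D and pif4 pif5 pif7 than in Col-0. Overexpression of AHL20 has been reported to dampen innate immune responses. It was at 2.00, 3.14 and 2.94 ppm in sob3-6, 1.44, 2.48 and 1.64 ppm in SOB3-D, 2.43, 2.04 and 1.30 ppm in pif4 pif5 pif7, and 4.98, 2.93 and 3.04 ppm in Col-0. The SOB3-D and pif4 pif5 pif7 libraries all lay below the 3 Col-0 libraries, while those of sob3-6 overlapped them. The meristem marker STM also lay below Col-0 in every SOB3-D and pif4 pif5 pif7 library. In sob3-6 it was at 4.01, 5.50 and 3.98 ppm and overlapped Col-0. Its part in the AHL20 values was not tested.

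The change of AHL20 was -0.69 (SE 0.19, interval -1.08 to -0.31, limma adjusted p = 0.00608) in SOB3-D and -0.66 (SE 0.19, -1.04 to -0.28, limma adjusted p = 0.031) in pif4 pif5 pif7. On the linear scale its mean ppm was 0.508 times the Col-0 mean in SOB3-D and 0.527 times in pif4 pif5 pif7. Against Col-0, sob3-6 gave -0.32 (-0.70 to 0.07, limma adjusted p = 0.275), and against SOB3-D it gave 0.38 (limma adjusted p = 0.117). On the recovered reads, edgeR called both, at -0.95 (adjusted p = 0.0123) in SOB3-D and -0.88 (adjusted p = 0.0213) in pif4 pif5 pif7. Libraries held 11 to 80 reads of AHL20, so these values rest on modest counts. Both calls leaned on Col-0 replicate 1: without it the change was -0.50 (limma adjusted p = 0.0722) in SOB3-D and -0.47 (limma adjusted p = 0.213) in pif4 pif5 pif7. The pif4 pif5 pif7 call was also lost without its replicate 2 (limma adjusted p = 0.0627) or its replicate 3 (limma adjusted p = 0.168), and AHL20 in sob3-6 against SOB3-D was called without SOB3-D replicate 2 (0.53, limma adjusted p = 0.0399).

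The 250 bases before the annotated start of AHL20 are shown because this was the member called in the pif mutant, and its promoter can be read for PIF-type letters. The run is chr4:8320288-8320537 on the plus strand of TAIR10.1, 5′ to 3′, with the PBE-box CATGTG in capitals.
AHL20 upstream: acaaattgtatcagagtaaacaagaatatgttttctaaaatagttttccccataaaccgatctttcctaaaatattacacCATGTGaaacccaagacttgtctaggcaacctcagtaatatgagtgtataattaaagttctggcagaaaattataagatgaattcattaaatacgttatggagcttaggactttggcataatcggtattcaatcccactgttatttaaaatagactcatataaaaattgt
The PBE-box begins 170 bases before the start. In windows of 250 bases before to 50 after the start, read on both strands, CATGTG was found in 2 of 10 members, AHL20 and AHL18, and in 12.9% of 27443 promoters. The G-box CACGTG was in 0 of 10 members and 7.7% of promoters, and AATATATT, an AT-rich stretch of the kind AT-hooks bind, in 0 of 10 members and 4.7% of promoters. A match is a description of letters, not of binding.

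AHL17 (AT5G49700, chr5:20192159-20193800, plus strand) was higher in sob3-6 than in SOB3-D. It was at 6.25, 7.86 and 7.32 ppm in sob3-6, 4.71, 4.73 and 5.73 ppm in SOB3-D, 5.94, 5.63 and 8.04 ppm in pif4 pif5 pif7, and 5.85, 4.74 and 6.28 ppm in Col-0. The sob3-6 libraries all lay above those of SOB3-D, as those of 44.1% of all tested genes did in one direction or the other. The change was 0.43 (SE 0.13, 0.15 to 0.70, limma adjusted p = 0.0142). It was not called by edgeR (0.41, adjusted p = 0.0799) or by DESeq2 (0.41, adjusted p = 0.173), nor by limma without sob3-6 replicate 2 (0.36, adjusted p = 0.0721). Against Col-0, AHL17 gave 0.30 (limma adjusted p = 0.14) in sob3-6, -0.13 (limma adjusted p = 0.548) in SOB3-D and 0.18 (limma adjusted p = 0.503) in pif4 pif5 pif7. AT5G00615, which the annotation places on the opposite strand over 349 bases of AHL17, has no transcript in the files.

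AHL15 (AT3G55560, chr3:20604616-20606650, minus strand), also called AGF2 and linked to juvenile growth, was the most abundant member per kilobase in pif4 pif5 pif7 and in Col-0. It was at 20.2, 20.7 and 23.6 ppm in sob3-6, 19.0, 19.8 and 17.2 ppm in SOB3-D, 19.2, 21.5 and 22.2 ppm in pif4 pif5 pif7, and 19.4, 16.3 and 19.3 ppm in Col-0. As deposited, levels in sob3-6 lay above those of both Col-0 and SOB3-D, without overlap, but neither difference was called. Libraries did not overlap in 33.2% of all tested genes against Col-0 and in 44.1% against SOB3-D. Median-of-ratios scaling factors were 1.04 to 1.05 in sob3-6, 0.994 to 1.01 in Col-0 and 0.982 to 0.993 in SOB3-D. Whether the libraries stay apart after such scaling was not tested. The change was 0.22 (limma adjusted p = 0.0921) in sob3-6, 0.02 (limma adjusted p = 0.875) in SOB3-D and 0.19 (limma adjusted p = 0.222) in pif4 pif5 pif7 against Col-0. Between sob3-6 and SOB3-D it was 0.19 (limma adjusted p = 0.0808).

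AHL16 (AT2G42940, chr2:17862254-17863456, minus strand) is TEK, known for silencing of transposons and for pollen wall formation in anthers. It was at 4.25, 4.13 and 4.38 ppm in sob3-6, 5.11, 3.94 and 4.67 ppm in SOB3-D, 4.08, 5.16 and 4.996 ppm in pif4 pif5 pif7, and 4.73, 4.99 and 4.69 ppm in Col-0. The 3 sob3-6 libraries lay below those of Col-0, and the other genotypes overlapped Col-0. No comparison was called, with limma adjusted p of 0.499 in sob3-6, 0.775 in SOB3-D and 0.956 in pif4 pif5 pif7 against Col-0, and 0.657 in sob3-6 against SOB3-D. All 1203 bases of AHL16 lie within the annotated span of AT2G42920 on the opposite strand, which stood at 13.4 to 16.9 ppm over the 12 libraries. Libraries were made with a stranded kit, but the use of strand in counting is not given in the sources used. Exons of the 2 genes were not compared, so whether their reads can be told apart is not known. AHL16 lies 22.6 kb from PIF4.

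AHL28 (AT1G14490, chr1:4958445-4959529, minus strand) sat close to the filter. It was at 1.202, 1.08 and 1.11 ppm in sob3-6, 1.31, 0.338 and 0.818 ppm in SOB3-D, 1.43, 1.02 and 1.67 ppm in pif4 pif5 pif7, and 1.37, 1.25 and 1.38 ppm in Col-0. The sob3-6 libraries were all below those of Col-0, and SOB3-D spread widely on 10, 3 and 7 reads. The change in SOB3-D was -0.39 (-0.77 to -0.02, limma adjusted p = 0.119), and among the alternatives run it was called only without SOB3-D replicate 1 (-0.58, limma adjusted p = 0.0242). In sob3-6 it was -0.13 (-0.50 to 0.25, limma adjusted p = 0.692).

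**Figure D3:**
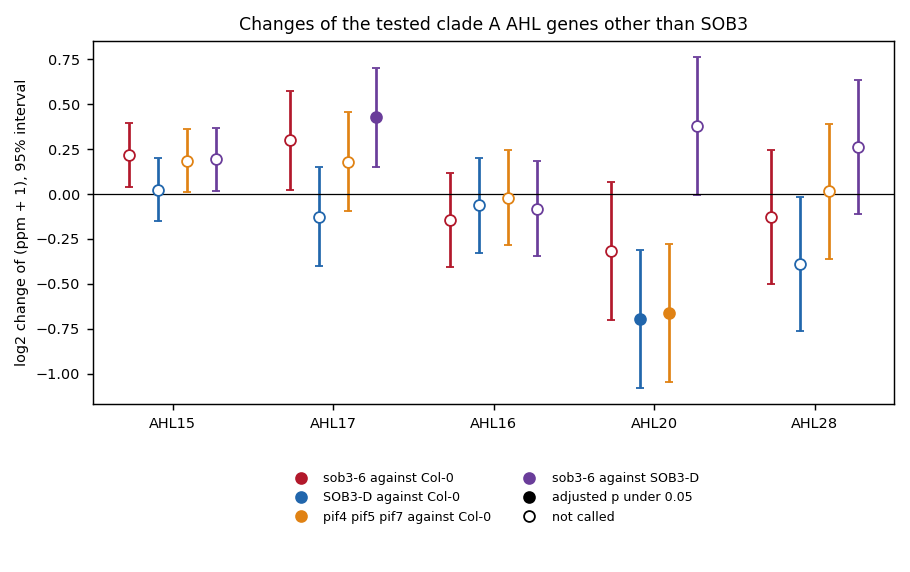
Log2 change of (ppm + 1) with its 95% interval (vertical axis) for the 5 tested members other than SOB3, for each of the altered genotypes against Col-0 and for sob3-6 against SOB3-D; filled points had adjusted p under 0.05. The filled points are AHL20 in SOB3-D (-0.69) and in pif4 pif5 pif7 (-0.66) and AHL17 in sob3-6 against SOB3-D (0.43).

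Levels of different members were set side by side per kilobase of transcript. In sob3-6, mean ppm per kb was 131 for SOB3, 11.6 for AHL15, 4.35 for AHL17, 3.53 for AHL16, 1.49 for AHL20, 1.04 for AHL28 and 0.305 for ESC. SOB3-D had the same leaders, with SOB3 at 114 and AHL15 at 10.045 ppm per kb, then AHL16 at 3.80, AHL17 at 3.08 and AHL20 at 1.02. In pif4 pif5 pif7 AHL15 led at 11.3 ppm per kb, with AHL17 at 3.98 and AHL16 at 3.94. Col-0 had AHL15 first at 9.88 ppm per kb, then AHL16 at 3.99, AHL17 at 3.42, AHL20 at 2.01, AHL28 at 1.23, ESC at 0.454 and SOB3 at 0.0841. In Col-0 the ranges of AHL16 (3.90 to 4.15) and AHL17 (2.89 to 3.83) did not overlap. In sob3-6 AHL17 stood above AHL16 in mean ppm per kb. Whether AHL16 levels include reads of AT2G42920 is not known, so the order of AHL16 and AHL17 is uncertain.

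ESC (AT1G20900, chr1:7272526-7274072, plus strand), the member closest to SOB3 in coding sequence, was weakly expressed in every genotype. It was at 0.481, 0.589 and 0.318 ppm in sob3-6, 0.262, 0.789 and 0.234 ppm in SOB3-D, 0.715, 0.407 and 0.434 ppm in pif4 pif5 pif7, and 0.622, 0.686 and 0.759 ppm in Col-0. The sob3-6 libraries were below those of Col-0, and the other genotypes overlapped Col-0. With no filter, limma gave ESC -0.21 (adjusted p = 0.357) in sob3-6, -0.26 (adjusted p = 0.189) in SOB3-D and -0.16 (adjusted p = 0.617) in pif4 pif5 pif7.

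The remaining members were near or at the counting limit. AHL22, whose overexpression delays flowering, had 9 reads in all 12 libraries, and AHL19, linked to resistance to Verticillium wilt, had 14. AHL18, known from root growth, had 0 reads in every library, which allows up to 0.187 to 0.393 ppm per library. No test was read from these genes.

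**Figure D4:**
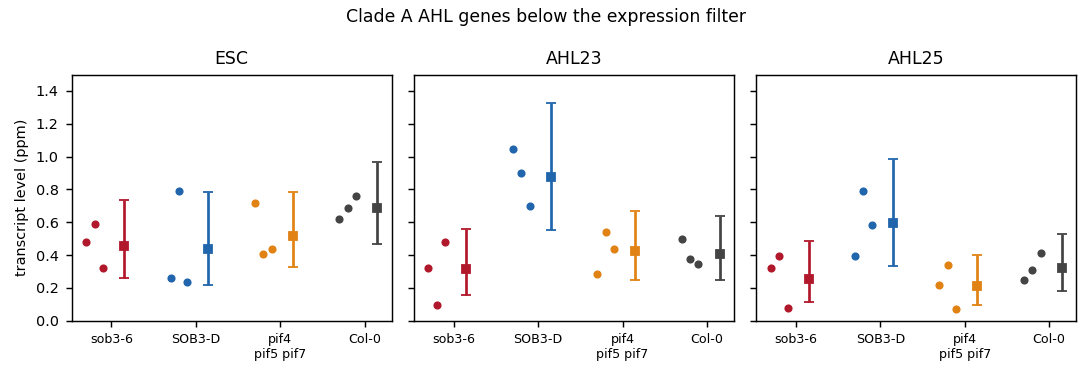
Transcript level in ppm (vertical axis) of ESC, AHL23 and AHL25 by genotype, with dots for libraries and squares for the 3 libraries pooled, with an exact 95% Poisson interval of their reads. ESC is highest in Col-0 by its pooled level, and AHL23 is highest in SOB3-D at 0.701 to 1.05 ppm.

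Outside the 10 members, the clade A gene AHL23 had its highest levels in SOB3-D. It was at 0.321, 0.0982 and 0.477 ppm in sob3-6, 1.05, 0.901 and 0.701 ppm in SOB3-D, 0.286, 0.543 and 0.434 ppm in pif4 pif5 pif7, and 0.498, 0.374 and 0.345 ppm in Col-0. The SOB3-D libraries, with 22 reads in all, lay above all others. With no filter, limma gave AHL23 0.42 (adjusted p = 0.0152) in SOB3-D against Col-0, and edgeR gave 1.103 (adjusted p = 0.112). In sob3-6 against SOB3-D the values were -0.54 (limma adjusted p = 0.00224) and -1.55 (edgeR adjusted p = 0.0332). AHL25 (AGF1, which binds the GA3OX1 promoter) was at 0.321, 0.393 and 0.0796 ppm in sob3-6, 0.393, 0.789 and 0.584 ppm in SOB3-D, 0.215, 0.339 and 0.0724 ppm in pif4 pif5 pif7, and 0.249, 0.312 and 0.414 ppm in Col-0. SOB3-D and Col-0 had 15 reads each, and their libraries overlapped (0.26, limma without filter adjusted p = 0.144). In sob3-6 against SOB3-D, whose libraries also overlapped, AHL25 gave -0.33 (limma without filter adjusted p = 0.0455, edgeR adjusted p = 0.169). AHL21 had 0 reads, AHL24 had 1 and AHL26 had 10.

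Clade B, the other branch of the AHL family, was read as a list for comparison, and all 14 genes were tested. In sob3-6 against Col-0, 1 rose (AHL10, 0.28, limma adjusted p = 0.0118) and 0 fell, with 13.4% called over all genes. In SOB3-D, 2 rose and 5 fell (AHL9, AHL10, AHL11, AHL12 and AHL14), with 26.4% over all genes. AHL1 was at 5.82 ± 0.96 ppm in SOB3-D and 1.77 ± 0.41 ppm in Col-0 (1.30, limma adjusted p = 2.12e-07), and AHL2 changed by 0.96 (limma adjusted p = 0.000224). In pif4 pif5 pif7, 0 of 14 were called by limma, with 6.33% over all genes. The lowest adjusted p of the 14 there was that of AHL12 (limma adjusted p = 0.286). EdgeR and DESeq2 called 0 there too, with no DESeq2 adjusted p for AHL1, AHL2 and AHL6. Over the 18502 genes, edgeR called 687 higher and 729 lower, and DESeq2 480 and 466. In sob3-6 against SOB3-D, 5 were higher and 3 lower, with 35.7% over all genes. The list's median log2 change was -0.01 in sob3-6, 0.01 in SOB3-D and 0.03 in pif4 pif5 pif7.

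Of 15 genes that the literature names as AHL targets or partners, 13 were tested. In sob3-6, 2 rose (PIF4 and TCP4) and GA3OX1, a gibberellin synthesis gene, fell, at 3.90 ± 0.49 ppm in sob3-6 and 5.42 ± 0.88 ppm in Col-0 (-0.39, limma adjusted p = 0.0393). The shares called over all genes were 13.4% in sob3-6, 26.4% in SOB3-D and 6.33% in pif4 pif5 pif7 against Col-0, and 35.7% in sob3-6 against SOB3-D. In SOB3-D, 4 rose and 5 fell, and GA3OX1 was at 15.2 ± 1.7 ppm (1.34, limma adjusted p = 1.86e-09). In pif4 pif5 pif7, 0 rose and 8 fell, and 3 of the 8 are the mutated PIF genes. In sob3-6 against SOB3-D, 7 were higher and 3 lower. The list's median log2 change was 0.16 in sob3-6, 0.02 in SOB3-D and -0.71 in pif4 pif5 pif7 against Col-0. The last median includes PIF4 (-0.84), PIF5 (-3.27) and PIF7 (-2.63), the genes mutated in that line.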

How the data were processed

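RNA-seq was read in 12 libraries, 3 per genotype. Per the submitters' processing notes, bcl2fastq, Bowtie 1.2.1 and the TAIR10 build were used. The deposited signal per transcript is in ppm of mapped tags, per the labels. The authors' values sum to 1599902 to 1626178 per library, beyond what a ppm scale can reach if each tag counts once. With only the highest transcript per locus they sum to 1064018 to 1068876, so most of the excess lay in further transcripts of the same loci. The unit was treated as a signal and the test chosen for ppm was kept, while the recovered depths take it as ppm of mapped tags. All values were whole multiples of 1 read (100% within 0.01 reads), and reads were recovered from them. Depth ran from 7637822 to 16075498 reads per library.

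A transcript was kept where 3 or more of the 12 libraries reached 1 ppm (25710 transcripts, 18502 genes), and log2(ppm + 1) was tested with limma 3.58.1 in R 4.3.3, with a trend and robust empirical Bayes, 8 residual degrees of freedom (median prior 21.3), and Benjamini-Hochberg adjustment per comparison. The fold changes understate those of genes near 1 ppm. A gene was read through its transcript of highest mean. Alternatives were other pseudocounts (0.5, 0.1), filters, scalings, a replicate block, edgeR 4.0.16 and DESeq2 1.42.0 on the recovered read counts, and leaving out each library. Coding sequence and promoters came from the RefSeq TAIR10.1 genome, and stood in for protein sequence. Genes named are the 10 members, the other clade A genes, up to 4 called genes per list and comparison, and the nearest patterns. Members and lists were chosen with earlier results of these data known. Same-numbered libraries of different genotypes had correlated deviations of -0.045 to 0.130 (median 0.034, 4 of 18 pairs over 0.1). Those with different numbers had -0.161 to 0.093 (median -0.012, 0 of 36 over 0.1). The numbers were not taken to pair samples, and whether they mark a weak shared effect was not tested. With the replicate block more genes were called in each comparison, as in pif4 pif5 pif7 against Col-0 (504 higher and 1217 lower, 277 and 894 without it).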

Additional observations from a re-analysis of the deposited data

How the results depend on the processing

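Of 430 values of the members under the alternatives, 401 kept direction and side of the threshold, 11 lost a call, 3 gained one and 15 changed sign, none of these 15 called. Most of the 401 belong to SOB3 or to members with no call. All 11 lost calls fell on the only calls of members other than SOB3. AHL20 lost its call in 6 alternatives and kept it in 11 in pif4 pif5 pif7, and in 1 and 17 in SOB3-D. AHL17 in sob3-6 against SOB3-D lost it in 4 and kept it in 14. In pif4 pif5 pif7 against Col-0, AHL16 turned to 0.015 with median-of-ratios scaling, 0.041 with quantile normalization, 0.021 in edgeR, 0.022 in edgeR with no filter and 0.024 in DESeq2. Leaving out 1 library moved AHL16 there between -0.072 and 0.067, SOB3 between -0.045 and 0.16 and AHL28 between -0.074 and 0.13, and in SOB3-D against Col-0 AHL15 between -0.053 and 0.080 and AHL16 between -0.13 and 0.021. Counts of called members here include SOB3, which SOB3-D was made to raise, and sob3-6 is described as isolated from SOB3-D plants. The count of called members in pif4 pif5 pif7 against Col-0 was 0 with no filter, 0 with quantile normalization and 0 with transcripts summed (AHL20 adjusted p 0.0865, 0.0501 and 0.0537). DESeq2 gave AHL20 no adjusted p there, so no count was made. In sob3-6 against SOB3-D the count was 2 with only the 2 genotypes fitted, 0 in edgeR, 0 in edgeR with no filter and 0 in DESeq2. Leaving out 1 library gave 1 to 3 called members in SOB3-D, 0 to 1 in pif4 pif5 pif7, 1 in sob3-6 and 0 to 2 in sob3-6 against SOB3-D. The replicate block changed no member's call: against Col-0 it left 1 called member in sob3-6, 2 in SOB3-D and 1 in pif4 pif5 pif7, and it left 1 in sob3-6 against SOB3-D. The cause of each change was not tested. Over all genes, median-of-ratios scaling gave 810 higher and 1255 lower in sob3-6 (1745 and 730 as deposited), 2642 and 2910 in sob3-6 against SOB3-D (4591 and 2016), and 534 and 565 in pif4 pif5 pif7 (277 and 894). SOB3-D had the fewest reads, which limits the low members most.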

Other observations

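The genes whose profile over the 12 libraries lay nearest to SOB3, by root mean square distance of scaled log2(ppm + 1), were AT1G48490 (0.190), AT5G19740 (0.238), PYD2 (0.239), APRR2 (0.241) and AT4G01610 (0.244). Each was higher in both AHL lines than in the others, which follows from choosing profiles near that of SOB3. The differences were far smaller than for SOB3: APRR2 averaged 72.6 ppm in sob3-6, 75.3 in SOB3-D, 53.3 in pif4 pif5 pif7 and 56.7 in Col-0. For AHL17 the nearest were DL1 (0.267), PARC6 (0.368) and DAYSLEEPER (0.415). For AHL20 they were AT5G42950 (0.341) and the loci ATCG00890 and ATCG01250 (0.368 each), whose values were identical. These distances describe 12 libraries and carry no test.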
